A study of Homo sapiens with 12 samples.

Results

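Cardiomyocytes given endothelin-1 for 48 h were compared with cardiomyocytes given vehicle, in 3 libraries each, which are 6 of the 12 libraries of the series. The vehicle group carried no endothelin-1 (0 nM) and is labelled as a DMSO control, and the endothelin-1 group received 10 nM endothelin-1. The other 6 libraries had received 16 µM sacubitrilat, the active inhibitor of the peptidase neprilysin, alone or together with endothelin-1, and they are used here only as groups of like sequencing depth. Sacubitrilat is itself a treatment, so a value against it compares 2 compounds. A like level in both groups does not show that endothelin-1 left a gene unchanged. All cells came from WTC-mEGFP-ACTN2-cl85, 1 clone of the established human WTC stem cell line. A single allele of its alpha-actinin-2 gene, ACTN2, whose protein anchors actin at the Z-disc, carries a green fluorescent protein tag at the C terminus. The cells were differentiated with CHIR99021 and IWP-2, enriched by lactate selection and replated, and each library came from a separate culture. All groups therefore share the tagged allele, the clone and the selection, and they are enriched cultures rather than heart tissue. The titles, library names and treatment labels define the groups. A second description line has these 2 single treatments the other way round, so the values of both groups are given side by side.

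Endothelin-1 is a vasoconstrictor peptide that endothelial cells and cardiomyocytes release as a precursor cut by furin-type proteases and endothelin-converting enzyme. On cardiomyocytes it acts mainly through the endothelin A receptor, which couples to Gq, phospholipase C, protein kinase C and the release of stored calcium. Calcineurin with NFAT, calmodulin kinase with MEF2, the MAP kinases and SRF carry the signal to the nucleus. The textbook response is hypertrophy, with more sarcomere protein and renewed expression of fetal genes such as those of the natriuretic peptides.

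The depth of the libraries differed with the treatment. Total counts were 316932, 80844 and 170644 in vehicle replicates 1 to 3 and 1781653, 1473744 and 1719492 in endothelin-1 replicates 1 to 3, an 8.75-fold gap between the group sums. The sacubitrilat libraries were as deep (1268308 to 1953122 counts) and the libraries with both compounds as shallow (87281 to 158791). A count of 0 in vehicle replicate 2 allows up to 37.1 CPM (counts scaled to the library total), and in endothelin-1 replicate 1 up to 1.68 CPM (3 counts, counting error only). Replicate libraries of vehicle also differed more among themselves, with a chi-square per degree of freedom of 1.58 to 4.97 between pairs, against 1.10 to 1.14 between endothelin-1 libraries. Depth and treatment cannot be told apart in endothelin-1 against vehicle. The fold changes of the genes described most fully are therefore followed by a depth-matched value, from endothelin-1 libraries thinned to the total of the vehicle library of the same number, and by a value against the sacubitrilat libraries, whose summed counts were similar.

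All 16 cardiomyocyte markers had counts in both groups, among them the sarcomere genes TTN, MYH7, MYL7 and TNNT2. Their summed level was 13872 to 20998 CPM with vehicle and 27894 to 29507 CPM with endothelin-1. In bulk RNA, fewer cells of a type and less RNA per cell cannot be told apart. Of 15 endothelial markers, 5 had 0 counts in all vehicle libraries and 3 in all endothelin-1 libraries, CDH5 in both, and the summed level was at most 93.8 CPM in any of these 6 libraries. The pluripotency gene POU5F1 had 0 counts with vehicle and at most 0.582 CPM with endothelin-1.

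With endothelin-1 the natriuretic peptide genes, many contractile, Z-disc and matrix genes and the cell cycle inhibitor gene CDKN1A were higher than with vehicle. Zinc finger and epithelial genes were among those with the largest falls. Of 11203 genes tested, 2596 (23.2%) passed an edgeR adjusted p of 0.05, 1231 of them higher (11%) and 1365 lower (12.2%) with endothelin-1, and the median log2 fold change over all tested genes was 0.10. At matched depth 2920 genes were tested and 630 passed (21.6%), 243 higher (8.32%) and 387 lower (13.3%), and 9 further draws of the thinning gave 617 to 646. Of 1109 genes that passed with full libraries and were tested at matched depth, 603 passed again, and all 1109 kept their direction, called or not. Thinned counts are drawn from the same libraries and set against the same vehicle counts, so like direction follows from the design. Depth matching evens out the totals and cannot separate treatment from other differences of the shallow libraries. Between the like-depth groups, endothelin-1 against sacubitrilat gave 1257 genes (11.2%), 722 higher (6.44%) and 535 lower (4.78%), and both compounds against vehicle gave 20 (0.179%), 9 higher (0.0803%) and 11 lower (0.0982%). These comparisons share libraries with endothelin-1 against vehicle. Both compounds and vehicle are shallow groups, so few calls between them do not show like levels. With all libraries thinned to 80000 counts, endothelin-1 against sacubitrilat gave 10 of 1853 genes. Vehicle replicate 2, the shallowest library, stood apart from the other vehicle libraries, and without it 2029 of 13684 genes passed.

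**Figure D1:**
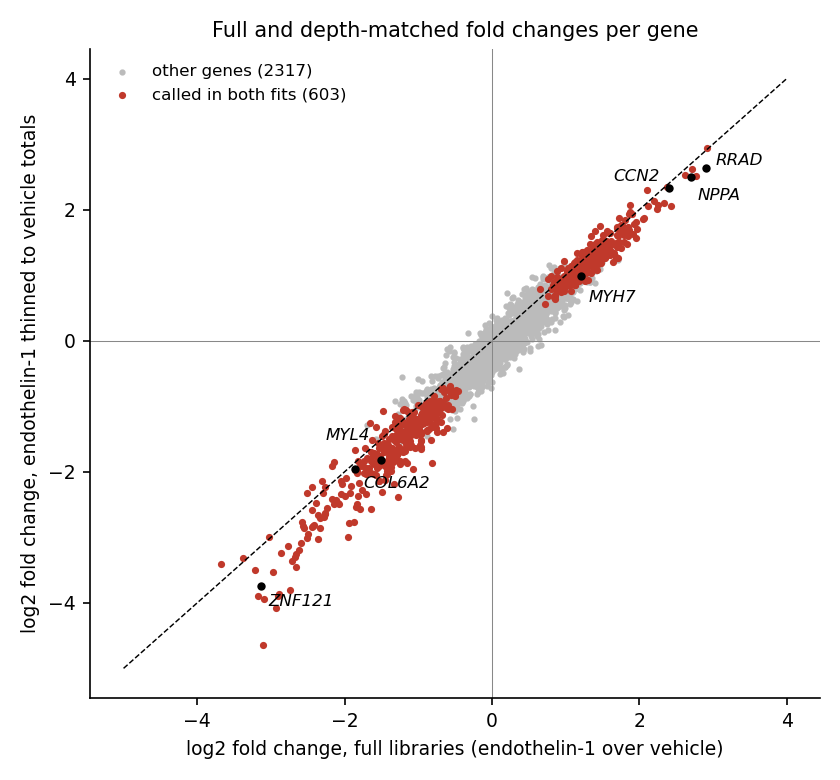
Each point is 1 of 2920 genes, with its log2 fold change of endothelin-1 over vehicle from full libraries on the x axis and from depth-matched libraries on the y axis. The dashed line marks equal values. The 603 genes called in both fits are red, and genes that rose lie near the line while many that fell lie below it.

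Both natriuretic peptide genes rose. NPPA (ENSG00000175206, chromosome 1, 11845709 to 11847783 on GRCh38), which encodes atrial natriuretic peptide, was at 855, 210.3 and 615 CPM in vehicle replicates 1 to 3 and at 3866, 3992 and 3650.5 CPM in endothelin-1 replicates 1 to 3. All endothelin-1 libraries lay above all vehicle libraries, and among the vehicle libraries the shallowest had the lowest level. The 2 groups did not overlap, in either direction, for 4834 of all tested genes (43.1%). For the genes named for the largest changes, no overlap was a condition of the choice. The log2 fold change was 2.70 ± 0.32 (SE, as for all log2 fold changes below; 6.48-fold; edgeR adjusted p = 3.81e-08), and at matched depth 2.50 ± 0.33 (edgeR adjusted p = 4.65e-04). Against sacubitrilat, where NPPA was at 1682, 1566 and 1684 CPM, endothelin-1 was higher by 1.34 ± 0.29 (edgeR adjusted p = 0.00101). Reads of NPPA and of its antisense gene are uncertain, since the strand setting of the counting is not given. NPPB (ENSG00000120937, chromosome 1, 11857464 to 11858945), the gene of brain natriuretic peptide, was at 119.9, 24.7 and 82.0 CPM with vehicle and 564, 568 and 547 CPM with endothelin-1, again without overlap. It rose by 2.62 ± 0.25 (6.16-fold; edgeR adjusted p = 5.22e-10; depth-matched 2.53 ± 0.31), yet it stood at 619, 629.6 and 779.8 CPM with sacubitrilat, a difference of -0.16 ± 0.15 (edgeR adjusted p = 0.587).

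Genes of the natriuretic peptide and cGMP pathway, NPPA and NPPB among them, were compared as a list of 19, of which 12 passed the filter. Of these 12, 5 rose and none fell, with a median of 0.77 against 0.10 over all genes, at matched depth 4 of 5 tested members rose and none fell, and 5 were higher and 2 lower than with sacubitrilat. FURIN (ENSG00000140564, chromosome 15, 90868588 to 90883457), a protease that cuts the brain natriuretic peptide precursor and pro-endothelin, was at 18.9, 37.1 and 52.7 CPM with vehicle and 166, 178 and 163 CPM with endothelin-1. Its rise was 2.44 ± 0.30 (edgeR adjusted p = 7.34e-08), 2.06 ± 0.38 at matched depth and 0.79 ± 0.11 against sacubitrilat (edgeR adjusted p = 2.16e-06). The guanylate cyclase subunit gene GUCY1A1, which belongs to the nitric oxide arm of cGMP signalling, rose by 1.14 ± 0.22 (edgeR adjusted p = 1.41e-04), but the depth-matched value of 0.87 ± 0.32 did not pass (edgeR adjusted p = 0.0662).

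Genes of the endothelin system were near the detection limit of the shallow libraries. EDNRA (ENSG00000151617, chromosome 4, 147481097 to 147544954), the endothelin A receptor gene, was at 37.9, 0 and 38.1 CPM with vehicle and 84.2, 109.9 and 101 CPM with endothelin-1. It rose by 1.66 ± 0.34 (edgeR adjusted p = 3.35e-04; depth-matched 1.33 ± 0.44), but its level with sacubitrilat was 102 ± 4.2 CPM (mean ± SD, n = 3), a difference of 0.05 ± 0.13. EDN1, the gene of endothelin-1 itself, had 2 counts over the vehicle libraries and 120 over the endothelin-1 libraries, a ratio of CPM of 6.86 (95% exact interval of counting error 1.86 to 57.3). EDN1 passed as higher (edgeR adjusted p = 0.00555) and was too low to be tested at matched depth. ECE1, which encodes an endothelin-converting enzyme, rose by 0.77 ± 0.25 (edgeR adjusted p = 0.0226; depth-matched 0.56 ± 0.31, edgeR adjusted p = 0.221). EDNRB, the endothelin B receptor gene, had 0 vehicle counts and 5 under endothelin-1, and MME, the gene of neprilysin, had 6 and 20 counts, so neither was tested.

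Downstream of the receptor, of 24 tested genes for calcineurin, calmodulin and calmodulin kinase, 7 rose and none fell (median 0.49), but at matched depth none of 10 was higher and 1 was lower, and 5 were higher and 0 lower than with sacubitrilat. RCAN1 (ENSG00000159200, chromosome 21, 34516442 to 34615113), an inhibitor of calcineurin that NFAT induces, was at 31.6, 0 and 41.0 CPM with vehicle and 83.6, 78.0 and 84.9 CPM with endothelin-1. It rose by 1.49 ± 0.33 (edgeR adjusted p = 8.11e-04), the depth-matched value was 1.20 ± 0.47 (edgeR adjusted p = 0.0823), and endothelin-1 exceeded sacubitrilat by 0.56 ± 0.13 (edgeR adjusted p = 0.00304). CAMK2D, the main cardiac calmodulin kinase gene, and MEF2A, a transcription factor gene of this arm, rose by 0.61 ± 0.19 and 0.91 ± 0.25, and at matched depth neither passed (0.66 ± 0.25 and 0.70 ± 0.33). Among 24 genes for Gq, phospholipase C and protein kinase C, 3 rose and 2 fell (median 0.15), 0 of 6 rose and 1 fell at matched depth (median 0.05), and 3 were higher and 1 lower than with sacubitrilat. RGS5 and RGS3, which speed the inactivation of G proteins, rose by 1.07 ± 0.24 and 1.44 ± 0.36, and the inositol trisphosphate receptor gene ITPR3 was among the 2 that fell. RGS5, also a member of the smooth muscle and pericyte list, did not pass at matched depth (0.75 ± 0.33, edgeR adjusted p = 0.125). Against sacubitrilat RGS5 did not pass (-0.13 ± 0.11) and RGS3 was higher (0.81 ± 0.15). RGS3 had 15 vehicle counts, ITPR3 had 12 and 13 under endothelin-1, and neither was tested at matched depth. MAP kinase feedback and immediate early genes had 1 of 26 tested higher and 6 lower (median -0.13), 0 of 7 rose and 1 fell at matched depth (median -0.39), and 4 were higher and 1 lower than with sacubitrilat. In that list IER3 was at 136, 136 and 147 CPM with vehicle and 74.1, 65.8 and 76.8 CPM with endothelin-1 (-0.90 ± 0.21, edgeR adjusted p = 0.00117), while it exceeded sacubitrilat by 0.76 ± 0.14. ETV4, a transcription factor gene induced by MAP kinase signalling, fell (-1.94 ± 0.40, edgeR adjusted p = 4.19e-04). It had 23 counts over the vehicle libraries and was not tested at matched depth. Against sacubitrilat its value was 0.95 ± 0.34 (edgeR adjusted p = 0.0583). The mean of ETV4 was 44.6 CPM with vehicle and 66.7 with both compounds, the shallow groups, and 10.4 with endothelin-1 and 5.75 with sacubitrilat.

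Targets of SRF and of YAP, which respond to the actin cytoskeleton and to load, held some of the largest rises. Of 34 tested targets, 16 rose and 2 fell, TGFB1I1 among them (median 0.62), and 9 of 26 rose and 2 fell at matched depth (median 0.55), and 10 were higher and 3 lower than with sacubitrilat. CCN2 (ENSG00000118523, chromosome 6, 131948176 to 131951372), which encodes connective tissue growth factor, was at 104, 49.5 and 82.0 CPM with vehicle and 441, 445 and 491 CPM with endothelin-1. Every endothelin-1 library was above every vehicle library (2.40 ± 0.23, edgeR adjusted p = 4.55e-10; depth-matched 2.34 ± 0.26), and the sacubitrilat libraries lay between at 252, 226 and 259.8 CPM (1.01 ± 0.12, edgeR adjusted p = 1.09e-07). ACTA2 (ENSG00000107796, chromosome 10, 88935074 to 88991337), smooth muscle actin, which immature cardiomyocytes also make, was at 306, 86.6 and 223 CPM with vehicle and 993, 1010.4 and 1007 CPM with endothelin-1. The change was 2.12 ± 0.23 (edgeR adjusted p = 8.46e-09), 2.05 ± 0.28 at matched depth and 1.07 ± 0.18 against sacubitrilat (edgeR adjusted p = 3.81e-05). ANKRD1 (ENSG00000148677, chromosome 10, 90912096 to 90921087), a stretch-responsive titin-binding protein gene, rose by 1.52 ± 0.25, from 543, 148 and 428 to 1148, 1227 and 1124 CPM (edgeR adjusted p = 1.65e-05; depth-matched 1.40 ± 0.30; against sacubitrilat 0.81 ± 0.21).

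The promoters of CCN2, ANKRD1, ACTC1 and RCAN1 are shown because each gene rose, belongs to an arm with a known DNA motif and holds a match to it, and they were chosen after the matches were seen: GGAATG or its reverse complement CATTCC for the TEAD partners of YAP, the CArG box for SRF, and GGAAAA or TTTTCC for NFAT. Each run is the 250 bases before a RefSeq start (GRCh38.p14, transcribed strand, here the minus strand for all), read 5′ to 3′ with motif matches in capitals. The windows are chr6:131951373-131951622 for CCN2, chr10:90921088-90921337 for ANKRD1, chr15:34795550-34795799 for ACTC1 and chr21:34526823-34527072 for RCAN1, and for the genes with several starts (3 for ACTC1, 6 for RCAN1) the one with most matches is shown.
CCN2: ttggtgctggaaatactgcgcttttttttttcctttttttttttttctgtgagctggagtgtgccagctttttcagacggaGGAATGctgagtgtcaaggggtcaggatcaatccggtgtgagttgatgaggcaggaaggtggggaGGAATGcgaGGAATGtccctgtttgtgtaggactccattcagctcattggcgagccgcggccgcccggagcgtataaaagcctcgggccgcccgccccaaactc
ANKRD1: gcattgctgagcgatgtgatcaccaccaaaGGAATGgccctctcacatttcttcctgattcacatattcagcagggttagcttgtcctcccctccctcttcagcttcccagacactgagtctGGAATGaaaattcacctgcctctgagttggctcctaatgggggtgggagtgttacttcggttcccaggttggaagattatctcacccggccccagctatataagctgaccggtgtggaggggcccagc
ACTC1: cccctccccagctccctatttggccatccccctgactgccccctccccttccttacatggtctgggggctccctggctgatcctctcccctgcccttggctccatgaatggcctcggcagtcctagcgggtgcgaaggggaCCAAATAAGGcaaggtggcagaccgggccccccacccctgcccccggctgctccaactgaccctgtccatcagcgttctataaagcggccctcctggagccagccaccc
RCAN1: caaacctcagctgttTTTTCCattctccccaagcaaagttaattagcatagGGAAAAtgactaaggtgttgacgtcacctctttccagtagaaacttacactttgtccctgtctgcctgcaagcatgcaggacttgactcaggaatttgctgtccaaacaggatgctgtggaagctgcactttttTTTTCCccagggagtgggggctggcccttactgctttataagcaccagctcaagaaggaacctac
CCN2 held 3 TEAD matches, starting 169, 104 and 95 bases before the start, and ANKRD1 held 2. ACTC1 had 1 CArG box, 109 bases before the start, and RCAN1 had 3 NFAT core matches. ACTA2, also a known SRF target, held 0 CArG boxes in its 2 windows. Among 35116 windows of the same length, 11.9% held GGAATG or CATTCC, 1.16% a CArG box and 21.2% GGAAAA or TTTTCC. Among the 982 genes called higher that have a window, 3.16% held a CArG box in at least 1 of their windows, against 1.42% of 776 called lower and 1.77% of 8322 tested. In the same order, GGAATG or CATTCC was found for 16.4%, 12.6% and 13.3% of genes and GGAAAA or TTTTCC for 24.8%, 21.1% and 23.3%. The other motifs were TGANTCA (the AP-1 site), found for 8.45%, 6.06% and 5.79% of these genes, and AGATAA or TTATCT (the GATA site), found for 10.5%, 6.19% and 6.96%. The 982 genes had 1612 windows, the 776 had 1088 and the 8322 had 12359, so genes called higher had more windows each. By window, in the same order, a CArG box was found in 2.05%, 1.10% and 1.25%. GGAATG or CATTCC was in 11.35%, 9.74% and 9.93% of windows and GGAAAA or TTTTCC in 18.3%, 17.1% and 18.1%. TGANTCA was in 5.645%, 4.50% and 4.19% and AGATAA or TTATCT in 7.26%, 4.50% and 5.10%. Motifs were searched on both strands, matches may overlap, and a match is a description of letters only.

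Sarcomere genes moved in both directions. MYH7 (ENSG00000092054, chromosome 14, 23412740 to 23435660), which encodes the slow beta heavy chain found in ventricular and hypertrophic muscle, was at 1559, 1113 and 1538 CPM with vehicle and 3323, 3033 and 3095 CPM with endothelin-1. The groups did not overlap (1.22 ± 0.25, edgeR adjusted p = 4.72e-04; depth-matched 1.00 ± 0.22), and endothelin-1 also exceeded sacubitrilat (1.58 ± 0.25, edgeR adjusted p = 1.37e-05). MYH6, the faster alpha chain, was at 822, 656 and 897 CPM with vehicle and 1061, 903 and 909 CPM with endothelin-1 and did not pass (0.32 ± 0.21, edgeR adjusted p = 0.287). MYH6 and MYH7 lie side by side with near-identical sequence, so their reads may not be fully separable. MYL2, the ventricular regulatory light chain, was at 22.1, 0 and 5.86 CPM with vehicle and 85.9, 81.4 and 91.9 CPM with endothelin-1. It rose by 2.64 ± 0.39 (edgeR adjusted p = 3.28e-06) and exceeded sacubitrilat by 2.30 ± 0.16 (edgeR adjusted p = 3.71e-13), and it was too low for the depth-matched test. The atrial light chain genes split: MYL7 rose by 1.20 ± 0.32 while MYL4 fell (-1.50 ± 0.32), from 4645, 14417 and 7038 to 2854, 2689.7 and 2648 CPM, and neither differed from sacubitrilat past the threshold (0.66 ± 0.31 and 0.52 ± 0.31). Of 15 genes tested in the myosin list, 6 rose and 2 fell, MYL4 and MYLK3 (median 0.32). Besides chains this list holds MYLK3, a myosin light chain kinase gene, and the myosin-binding protein gene MYBPC3. In the same list 3 of 13 rose and 3 fell at matched depth (median 0.13), and 5 were higher and 0 lower than with sacubitrilat.

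Among actin and Z-disc genes, rises outnumbered falls. ACTC1 (ENSG00000159251, chromosome 15, 34790230 to 34795549), cardiac actin, was at 2360.1, 247 and 1559 CPM with vehicle and 5173, 4708 and 5180.0 CPM with endothelin-1, and among the vehicle libraries its order was that of the totals. Its rise of 1.80 ± 0.38 (edgeR adjusted p = 5.81e-04; depth-matched 1.66 ± 0.46) had no counterpart against sacubitrilat (-0.05 ± 0.36, at 5744, 5031 and 6089 CPM). Skeletal actin, ACTA1, often used as a hypertrophy marker, did not pass (0.52 ± 0.25, edgeR adjusted p = 0.137) and was lower than with sacubitrilat (-0.58 ± 0.13, edgeR adjusted p = 0.00151). Of 36 Z-disc, titin and M-band genes tested, 17 rose and 1, PDLIM7, fell (median 0.84), 8 of 25 rose and 1 fell at matched depth, and 20 were higher than with sacubitrilat against none lower. FHL2, a titin-bound adaptor of the Z-disc region, was at 15.8, 49.5 and 17.6 CPM with vehicle and 99.9, 99.1 and 99.4 CPM with endothelin-1 (2.26 ± 0.34, edgeR adjusted p = 3.42e-06; depth-matched 2.08 ± 0.45; against sacubitrilat 1.41 ± 0.13). CRYAB, a small heat shock protein that guards desmin and titin, was at 69.4, 61.8 and 52.7 CPM with vehicle and 223, 246 and 193 CPM with endothelin-1. It rose by 1.83 ± 0.24 (edgeR adjusted p = 3.20e-07) and exceeded sacubitrilat by 1.27 ± 0.11 (edgeR adjusted p = 1.04e-10). Further rises were those of CSRP3, a stretch-sensing LIM protein gene (1.59 ± 0.25), NEXN, a Z-disc actin-binding protein gene (1.56 ± 0.24), NEBL, which encodes nebulette (1.54 ± 0.22), and MYBPC3, cardiac myosin-binding protein C (1.48 ± 0.24), all of which also passed at matched depth. The tagged gene ACTN2 rose by 1.23 ± 0.20, from 204, 86.6 and 176 to 411, 400.3 and 390.2 CPM.

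Of 19 thin filament genes tested, 9 rose and 1, the troponin gene TNNC1, fell (median 0.60). Of these genes 6 of 16 rose and 3 fell at matched depth (median 0.43), and 5 were higher and 1 lower than with sacubitrilat. TNNC1, TNNT2, TTN and ACTN2 were singled out after their values were seen. TNNC1, the calcium-binding subunit of the thin filament, fell from 2839.7, 4935 and 3504 CPM with vehicle to 1775, 1591 and 1669.7 CPM with endothelin-1 (-1.03 ± 0.26, edgeR adjusted p = 0.00372). TNNT2 was at 1899, 2220.3 and 2168 CPM with vehicle and 1509, 1445 and 1353 CPM with endothelin-1 and did not pass (-0.45 ± 0.24, edgeR adjusted p = 0.18), though it passed as lower at matched depth (-0.67 ± 0.20, edgeR adjusted p = 0.027). TTN, the longest sarcomere gene, rose by 1.25 ± 0.32 (edgeR adjusted p = 0.00442). TNNC1 was highest, and TTN lowest, in vehicle replicate 2.

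**Figure D2:**
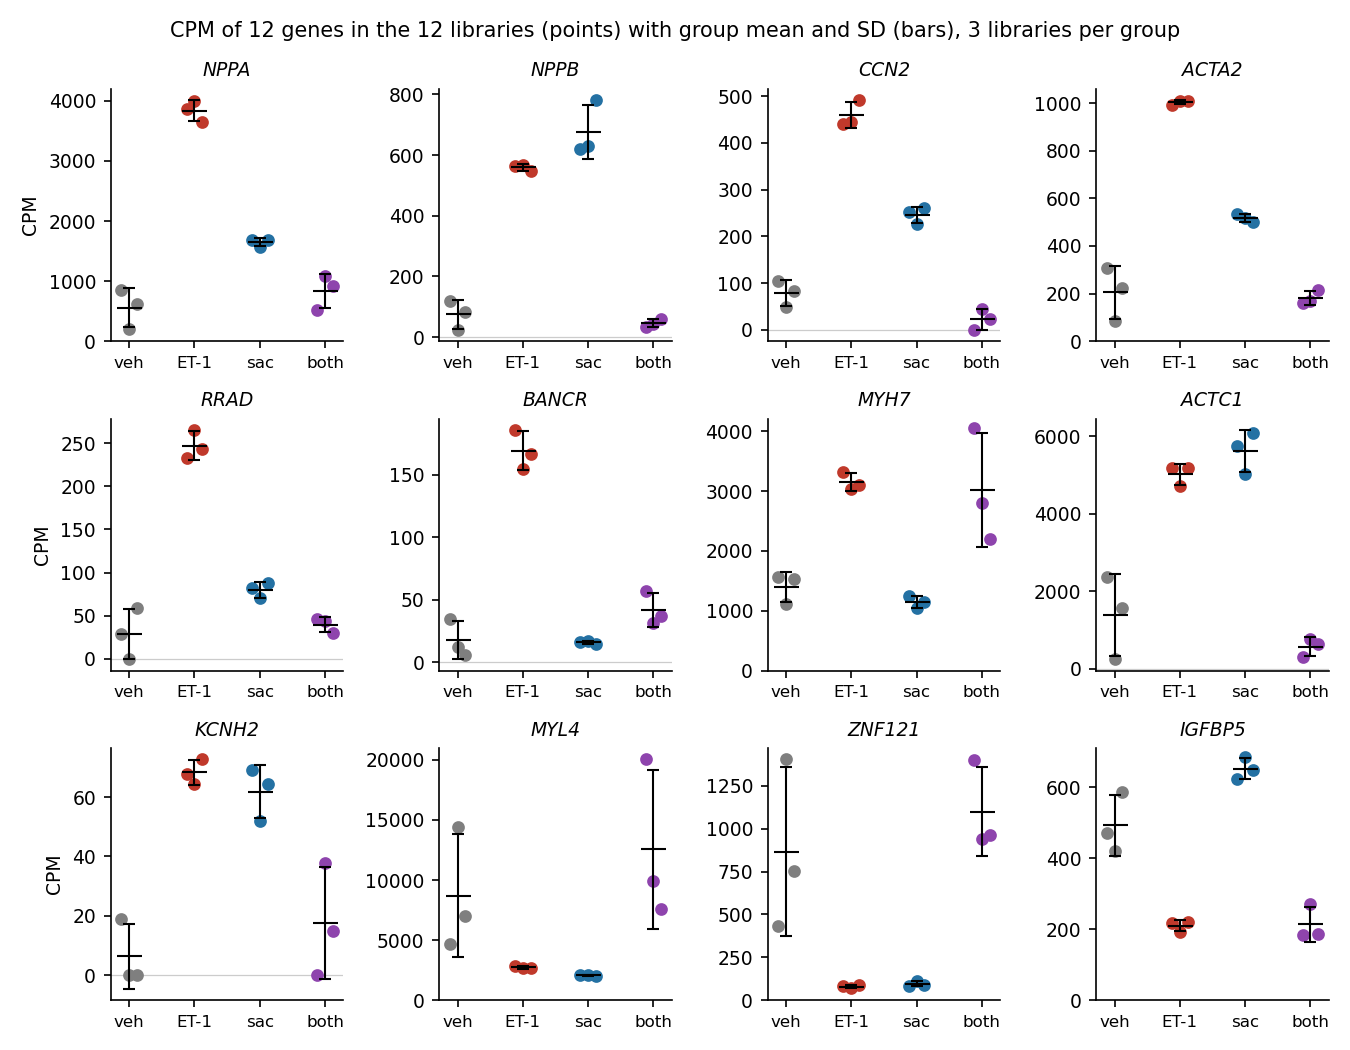
CPM of 12 genes (y axes, linear) in the libraries given vehicle (veh), endothelin-1 (ET-1), sacubitrilat (sac) or both compounds, with 1 point per library and bars for the mean ± SD of 3. NPPA, ACTA2, RRAD and BANCR are highest with endothelin-1, NPPB, ACTC1 and KCNH2 are about as high with sacubitrilat, and MYL4 and ZNF121 are high in both shallow groups.

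Genes of calcium cycling and excitability rose in part. PLN (ENSG00000198523, chromosome 6, 118548296 to 118561716), phospholamban, the brake on the calcium pump of the sarcoplasmic reticulum, was at 278, 0 and 135 CPM with vehicle and 629, 652 and 679.9 CPM with endothelin-1. Its rise was 1.85 ± 0.27 (edgeR adjusted p = 1.78e-06; depth-matched 1.73 ± 0.45; against sacubitrilat 0.82 ± 0.18), and the pump gene ATP2A2 did not pass (-0.22 ± 0.20, edgeR adjusted p = 0.468), with overlapping groups. RYR2, the calcium release channel, and SLC8A1, the sodium-calcium exchanger, rose by 1.01 ± 0.22 and 1.40 ± 0.24 and at matched depth by 1.06 ± 0.33 and 1.47 ± 0.34. Of 22 calcium cycling genes tested, 6 rose and 1, ORAI1, fell (median 0.47), 3 of 11 rose and 0 fell at matched depth (median 0.65), and 9 were higher and 1 lower than with sacubitrilat. RRAD (ENSG00000166592, chromosome 16, 66921685 to 66925535), a small GTPase that restrains the L-type calcium channel, was at 28.4, 0 and 58.6 CPM with vehicle and 233, 265 and 243 CPM with endothelin-1. It had one of the largest rises at 2.91 ± 0.29 (7.51-fold; edgeR adjusted p = 1.02e-09; depth-matched 2.64 ± 0.43), and it exceeded sacubitrilat by 1.72 ± 0.12 (edgeR adjusted p = 2.90e-13). KCNH2 (ENSG00000055118, chromosome 7, 150944961 to 150978321), the channel of the rapid delayed rectifier potassium current, was at 18.9, 0 and 0 CPM with vehicle, from 6 counts, and 67.9, 64.5 and 72.7 CPM with endothelin-1. Its change of 2.72 ± 0.50 (edgeR adjusted p = 8.12e-05; depth-matched 2.62 ± 0.60) did not recur against sacubitrilat (0.25 ± 0.15, edgeR adjusted p = 0.323). The gap junction gene GJA1 rose by 1.79 ± 0.36. Of 12 ion channel and gap junction genes tested, 6 rose and 2 fell, KCNJ3 and GJC1, and KCNJ3 lost its call without vehicle replicate 2. Of these channel genes 4 of 6 rose and 0 fell at matched depth (median 0.92), and 4 were higher and 1 lower than with sacubitrilat.

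Cardiac transcription factor genes rose in 8 of 23 cases and fell in none (median 0.61), with 1 of 7 higher and none lower at matched depth (median 0.12), and 8 were higher and 2 lower than with sacubitrilat. HOPX, an adult-type cardiac homeodomain gene, was at 6.31, 0 and 5.86 CPM with vehicle and 43.2, 33.9 and 39.5 CPM with endothelin-1 (2.89 ± 0.59, edgeR adjusted p = 3.26e-04), and it exceeded sacubitrilat by 2.30 ± 0.23 (edgeR adjusted p = 1.18e-09). Its vehicle values rest on 3 counts, and the ratio of CPM was 7.43 (95% exact interval of counting error 2.5 to 36.3). NKX2-5, GATA6 and the SRF cofactor gene MYOCD rose by 1.69 ± 0.35, 1.59 ± 0.31 and 1.10 ± 0.20, and GATA6 did not differ from sacubitrilat past the threshold (0.03 ± 0.12). At matched depth GATA6 passed (1.41 ± 0.44, edgeR adjusted p = 0.0358), MYOCD did not (0.84 ± 0.31, edgeR adjusted p = 0.0636) and NKX2-5 was not tested. Of 9 ventricular markers tested, 7 rose and none fell (median 1.44), 5 of 7 rose and none fell at matched depth, and 8 were higher and none lower than with sacubitrilat. Their summed level was 3477 to 4459 CPM with vehicle, 6201 to 6512 with endothelin-1 and 2819.8 to 3009 with sacubitrilat.

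Of 37 matricellular, elastic fibre and cross-linking genes tested, 21 rose and 3 fell, TNC, MFAP2 and MMP14 (median 0.90), and of 17 collagens 11 rose and 1 fell (median 0.87). Of the first list 7 of 23 rose and 3 fell at matched depth (median 0.49), and 15 were higher and 2 lower than with sacubitrilat. Of the collagens 4 of 12 rose and 1 fell at matched depth (median 0.78), and 3 were higher and 3 lower than with sacubitrilat. Summed fibroblast markers, which include collagens of this list, were at 1948 to 5228 CPM with vehicle and 6831 to 7689 with endothelin-1, and smooth muscle and pericyte markers at 646 to 2333 CPM with vehicle and 4003 to 4051 with endothelin-1. Their part in the matrix values was not tested. POSTN (ENSG00000133110, chromosome 13, 37562585 to 37598768), periostin, a matrix protein of injured and hypertrophic hearts, was at 9.47, 12.4 and 11.7 CPM with vehicle and 79.7, 81.4 and 77.3 CPM with endothelin-1. It rose by 2.93 ± 0.44 (edgeR adjusted p = 4.10e-06) and exceeded sacubitrilat by 1.54 ± 0.16 (edgeR adjusted p = 1.74e-09), but its 6 vehicle counts left it out of the depth-matched test. HTRA1, a secreted protease that cuts matrix and TGF-beta proteins, went from 25.2, 12.4 and 17.6 to 152, 132 and 141 CPM (2.78 ± 0.36, edgeR adjusted p = 2.04e-07; depth-matched 2.52 ± 0.42; against sacubitrilat 1.19 ± 0.13). FBN2, HSPG2 and LTBP1, which encode fibrillin-2, perlecan and a latent TGF-beta binding protein, rose by 1.71 ± 0.21, 1.28 ± 0.18 and 1.41 ± 0.20. Each of the 3 passed at matched depth and exceeded sacubitrilat (1.13 ± 0.12, 1.16 ± 0.13 and 1.13 ± 0.12). COL5A1 and the basement membrane gene COL4A1 rose by 1.24 ± 0.20 and 0.99 ± 0.18, whereas COL6A2 (ENSG00000142173, chromosome 21, 46098112 to 46132848), a chain of collagen VI, fell from 663, 705 and 679.8 CPM with vehicle to 193, 159 and 184 CPM with endothelin-1. Among the vehicle libraries COL6A2 was lowest in the deepest and highest in the shallowest. Its log2 fold change was -1.86 ± 0.20 (edgeR adjusted p = 6.43e-09), with -1.95 ± 0.23 at matched depth and -0.95 ± 0.17 against sacubitrilat (edgeR adjusted p = 1.03e-04). LOX, which cross-links collagen, rose by 1.70 ± 0.33 and exceeded sacubitrilat by 1.97 ± 0.16 (edgeR adjusted p = 6.44e-12).

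Secreted factors and adhesion genes showed opposite changes within families. IGFBP7, a binding protein of insulin-like growth factors, rose by 1.80 ± 0.22, from 334, 111 and 339.9 to 989, 988 and 996 CPM (edgeR adjusted p = 7.63e-08; depth-matched 1.66 ± 0.27; against sacubitrilat 1.75 ± 0.18). IGFBP5, of the same family, fell from 470.1, 421 and 586 CPM with vehicle to 218, 193 and 220.1 CPM with endothelin-1. All 3 endothelin-1 libraries were below all vehicle libraries (-1.19 ± 0.18, edgeR adjusted p = 3.30e-06; depth-matched -1.39 ± 0.23), and IGFBP5 was also lower than with sacubitrilat (-1.52 ± 0.14, edgeR adjusted p = 2.46e-10). CXCL12, a chemokine gene, rose by 1.95 ± 0.26 and exceeded sacubitrilat by 1.59 ± 0.14. The angiogenic factor gene VEGFA rose by 0.85 ± 0.23, and at matched depth it did not pass (0.34 ± 0.33). DACT1, a modulator of Wnt signalling, and PRSS35, a gene of the trypsin-like serine protease family, rose by 2.24 ± 0.33 and 2.37 ± 0.40, and each also exceeded sacubitrilat (1.13 ± 0.13 and 1.16 ± 0.15). ID3, a target of bone morphogenetic protein signalling, rose by 2.21 ± 0.25 (depth-matched 2.13 ± 0.29; against sacubitrilat 0.51 ± 0.11). Of 30 integrin and focal adhesion genes tested, 12 rose and 1 fell, 7 of 18 rose and 1 fell at matched depth (median 0.50), and 9 were higher and 2 lower than with sacubitrilat. The laminin gene LAMB1 rose by 1.31 ± 0.20, and the 1 that fell was ITGA3, a laminin receptor subunit gene, at 309, 383 and 352 CPM with vehicle and 152, 149 and 145 CPM with endothelin-1 (edgeR adjusted p = 1.65e-05; against sacubitrilat -0.96 ± 0.13).

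CDKN1A (ENSG00000124762, chromosome 6, 36676463 to 36687332), the p21 inhibitor of cyclin-dependent kinases, was at 167, 37.1 and 147 CPM with vehicle and 639, 717 and 702 CPM with endothelin-1. It rose by 2.33 ± 0.22 (5.03-fold; edgeR adjusted p = 5.22e-10; depth-matched 2.10 ± 0.30) and exceeded sacubitrilat by 1.16 ± 0.15 (edgeR adjusted p = 1.89e-07). ZMAT3, a further p53 target gene, rose by 1.38 ± 0.22 (depth-matched 1.20 ± 0.26), and of 28 tested p53 targets and inhibitors 9 rose and 1, POLH, fell (median 0.69). Of these 2 of 7 rose and 1 fell at matched depth (median 0.53), and 7 were higher and 0 lower than with sacubitrilat. Cell cycle and replication genes had 3 of 36 higher and 6 lower than vehicle (median -0.56), at matched depth 1 of 7 higher and 1 lower, and against sacubitrilat 2 higher and 21 lower (median -0.67). BIRC5, survivin, which acts in cell division, fell from 82.0, 89.7 and 35.2 to 28.1, 21.7 and 32.0 CPM (edgeR adjusted p = 0.00295; against sacubitrilat -1.07 ± 0.17). CCND1, cyclin D1, rose by 0.93 ± 0.18 and exceeded sacubitrilat by 1.11 ± 0.11, but at matched depth it did not pass (0.64 ± 0.25, edgeR adjusted p = 0.0795). MCM4, a subunit of the replication helicase, was at 85.2, 594 and 182 CPM with vehicle and 30.9, 29.2 and 33.1 CPM with endothelin-1, a fall (-2.58 ± 0.33, edgeR adjusted p = 2.01e-07) with its highest value in the shallowest library.

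**Figure D3:**
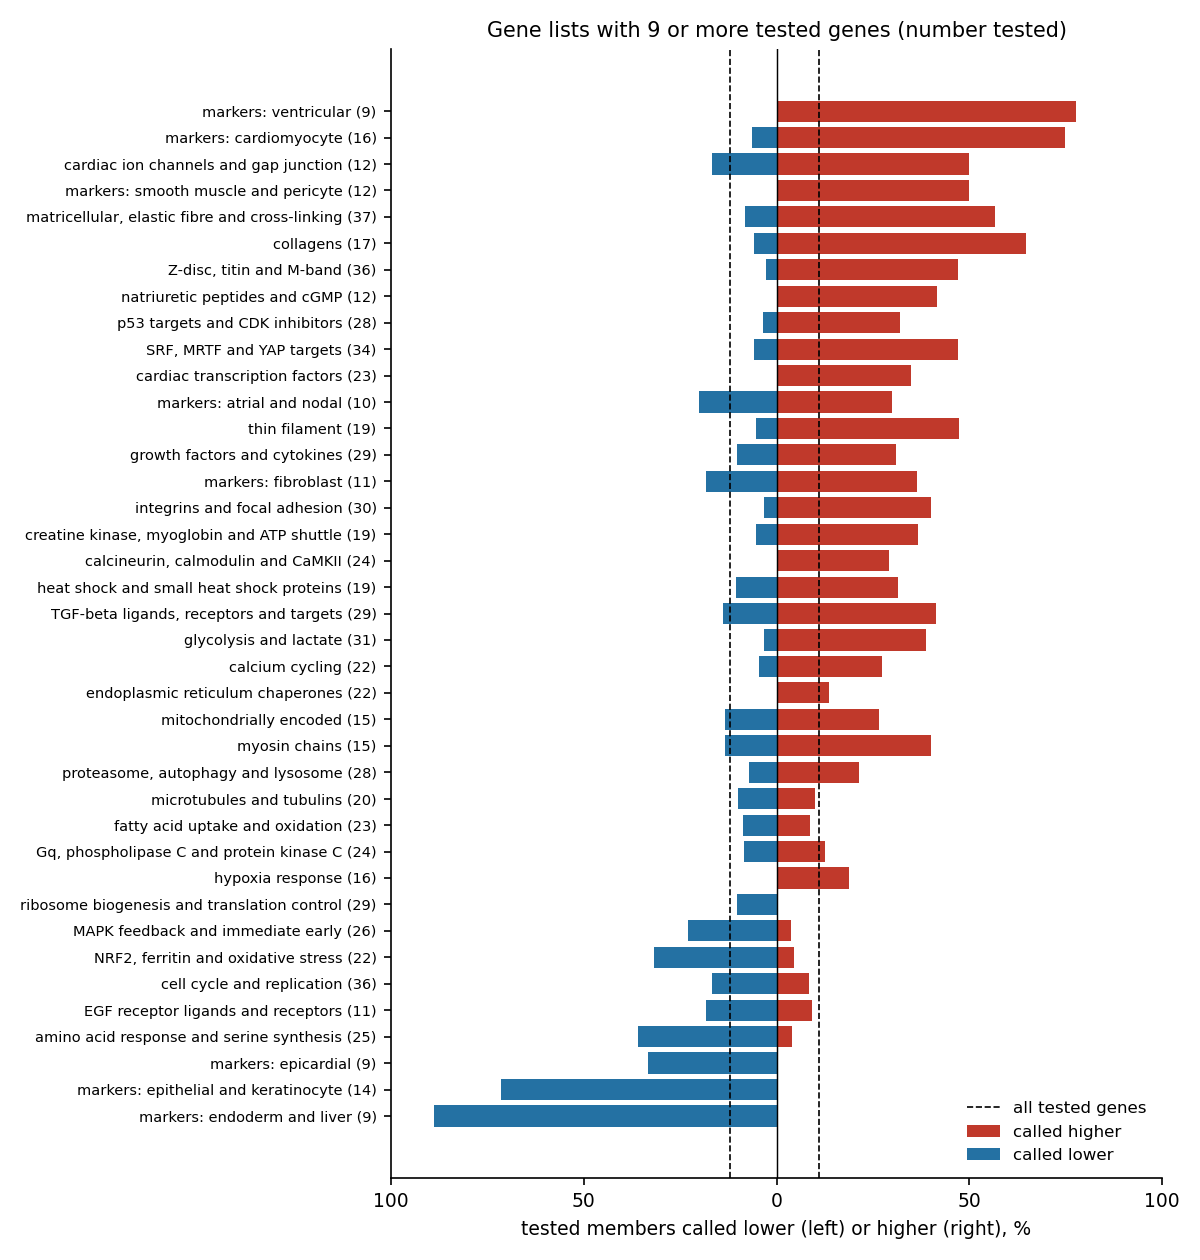
Bars give the percent of tested members called higher (right, red) or lower (left, blue) with endothelin-1 for the 39 lists with 9 or more tested genes, in order of their median log2 fold change. Dashed lines mark all tested genes, 11% higher and 12.2% lower, and the ventricular and cardiomyocyte markers extend farthest to the right while the endoderm and epithelial markers extend farthest to the left.

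Of 31 glycolysis and lactate genes tested, 12 rose and 1 fell (median 0.47). Of these 4 of 22 rose and 1 fell at matched depth (median 0.11), and 13 were higher and 1 lower than with sacubitrilat. PFKP and ENO3, genes of glycolytic enzymes, rose by 1.46 ± 0.22 and 0.80 ± 0.17. The 1 that fell was GAPDH, at 10740.5, 20124 and 13733 CPM with vehicle and 6249, 5849 and 5962 CPM with endothelin-1 (edgeR adjusted p = 0.00323), with no difference from sacubitrilat past the threshold (0.33 ± 0.29). FABP3, the heart fatty acid binding protein, rose by 1.69 ± 0.23, from 101, 37.1 and 105 to 289, 311 and 277 CPM, and exceeded sacubitrilat by 1.47 ± 0.12 (edgeR adjusted p = 1.52e-11). In the list of fatty acid uptake and oxidation 2 of 23 genes, FABP3 among them, were higher and 2 lower, ACSL1 and LPL, of which LPL lost its call without vehicle replicate 2, and 1 of 5 rose and 0 fell at matched depth (median -0.04), and 4 were higher and 0 lower than with sacubitrilat. CKMT2, the mitochondrial creatine kinase of sarcomeric muscle, was not counted in any vehicle library and had 116 counts under endothelin-1, at least 4.42-fold higher (floor of 3 counts over the vehicle group). Among 15 mitochondrially encoded genes 4 rose and 2 fell, 3 of 15 rose and 2 fell at matched depth (median 0.15), and 0 were higher and 0 lower than with sacubitrilat. Their values included MT-CO3 at 8039.6, 10242 and 7608 CPM with vehicle and 18612, 20623 and 19187 with endothelin-1, and MT-ATP8, which overlaps MT-ATP6, at 11925, 21118 and 15903 and 3529, 3201 and 4113 CPM.

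Of 25 genes of the amino acid response and serine synthesis, 1 rose and 9 fell (median -0.63), while 0 of 9 rose and 1 fell at matched depth (median -0.18) and 2 were higher and 10 lower than with sacubitrilat. PHGDH (ENSG00000092621, chromosome 1, 119711934 to 119744215), the first enzyme of serine synthesis, was at 265, 210.3 and 281 CPM with vehicle and 81.4, 83.5 and 90.7 CPM with endothelin-1. The log2 fold change was -1.58 ± 0.20 (edgeR adjusted p = 1.78e-07), with -1.31 ± 0.29 at matched depth and -1.21 ± 0.13 against sacubitrilat (edgeR adjusted p = 7.34e-09). SLC7A11, the cystine importer, fell (-2.75 ± 0.54, edgeR adjusted p = 1.88e-04) and was lower than with sacubitrilat (-2.05 ± 0.32, edgeR adjusted p = 1.39e-05). Of 22 NRF2, ferritin and oxidative stress genes, 1 rose and 7 fell (median -0.35), among them the metallothionein gene MT2A (from 134, 334 and 234 to 55.3, 26.5 and 16.3 CPM) and the quinone reductase gene NQO1. In that list 0 of 12 rose and 4 fell at matched depth (median -0.33), and 6 were higher and 1 lower than with sacubitrilat. MT2A was higher than with sacubitrilat (1.52 ± 0.35, edgeR adjusted p = 0.00195). CRYAA, a lens crystallin gene with a near-identical copy that shares its reads, was not counted in any vehicle library and was at 30.0, 24.8 and 31.1 CPM under endothelin-1, at least 5.46-fold higher (floor of 3 counts over the vehicle group) and uncertain as to copy.

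BANCR (ENSG00000278910, chromosome 9, 69296681 to 69307056), a long noncoding RNA gene, had the largest rise of the 12 named for size, among genes that also passed at matched depth. It was at 34.7, 12.4 and 5.86 CPM in the vehicle libraries and 186, 155 and 167 CPM in the endothelin-1 libraries. The groups were far apart (2.92 ± 0.32, 7.56-fold, edgeR adjusted p = 9.08e-09; depth-matched 2.94 ± 0.41), and the sacubitrilat libraries lay within the vehicle range at 16.2, 17.3 and 14.8 CPM (3.52 ± 0.16, edgeR adjusted p = 2.46e-19). Of those 12 genes, 10 exceeded sacubitrilat, and NPPB and KCNH2 did not pass. The 12 had a median of 1.16 against sacubitrilat, where all tested genes had -0.01, and none passed between both compounds and vehicle (median 0.14).

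**Figure D4:**
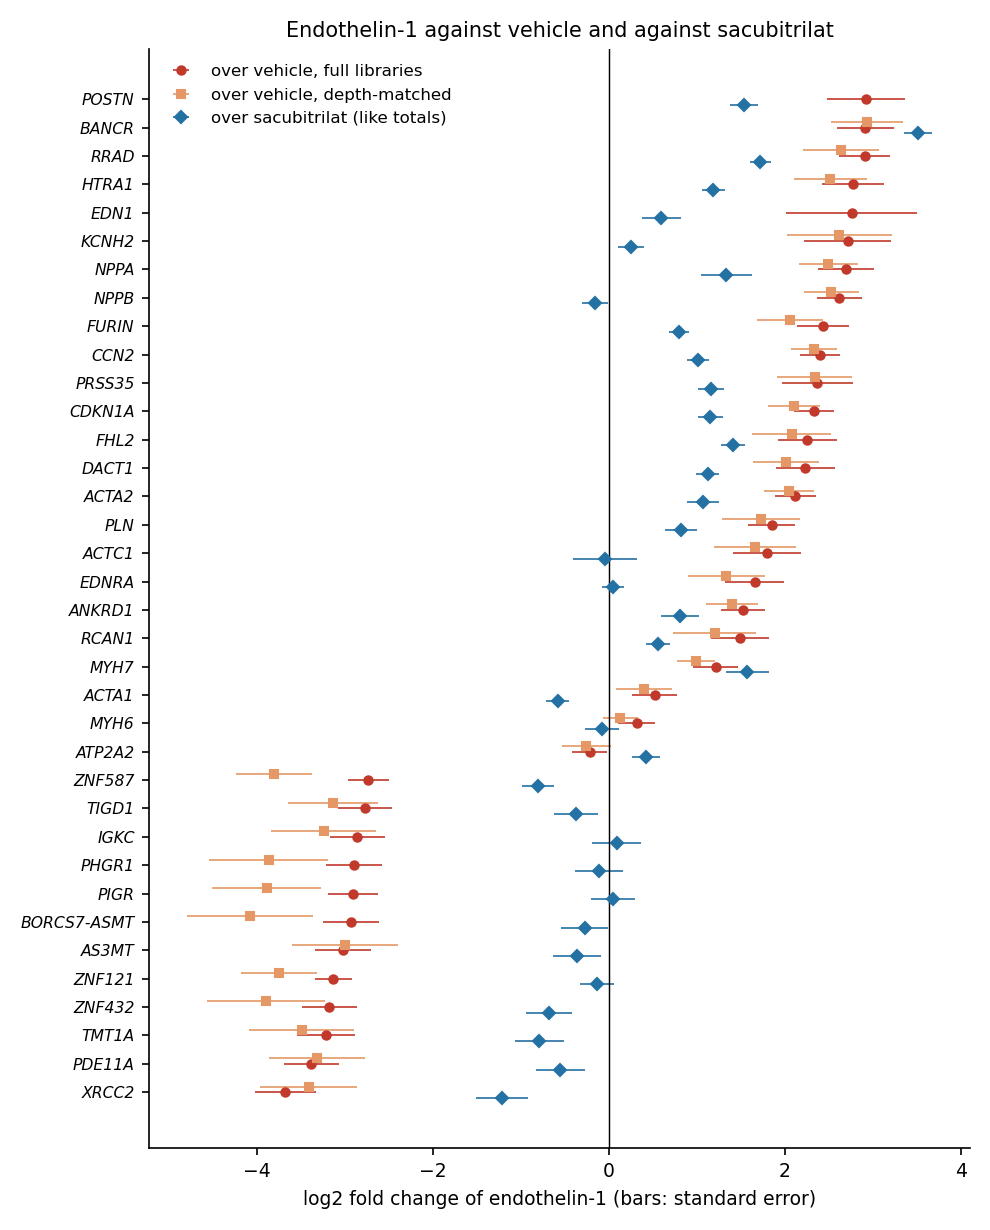
Log2 fold change (x axis, bars for the standard error) of 36 panel and largest-change genes for endothelin-1 over vehicle with full libraries (circles), at matched depth (squares) and over sacubitrilat (diamonds). Most rises over vehicle have a smaller rise over sacubitrilat, while 10 of the 12 largest falls have no passing difference there.

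The 12 largest falls were XRCC2, PDE11A, TMT1A, ZNF432, ZNF121, AS3MT, BORCS7-ASMT, PIGR, PHGR1, IGKC, TIGD1 and ZNF587, with log2 fold changes of -3.68 to -2.74. They include zinc finger genes, a DNA repair gene (XRCC2), a cyclic nucleotide phosphodiesterase gene (PDE11A) and genes of gut epithelium and antibody-making cells (PIGR, IGKC). ZNF121 (ENSG00000197961, chromosome 19, 9560329 to 9584504) was at 435, 1404 and 756 CPM with vehicle and 80.3, 69.9 and 88.1 CPM with endothelin-1 (-3.13 ± 0.21, edgeR adjusted p = 7.82e-14; depth-matched -3.75 ± 0.43). In counts, ZNF121 had 138, 114 and 129 in the vehicle libraries and 143, 103 and 152 in the endothelin-1 libraries, so its counts stayed within a narrow range while the totals rose. Over the 12 genes, summed counts with endothelin-1 were 0.661 to 1.29 times those with vehicle (median 1.08), against 8.75 for the totals. These ratios largely restate the fold changes by which the 12 were chosen. Over all genes called lower the median ratio was 2.85, and over genes not called 9.25. PIGR had 32, 28 and 29 vehicle counts and 30, 28 and 44 under endothelin-1, and ZNF587 had 58, 36 and 56 and 68, 47 and 80. Against sacubitrilat 10 of the 12 did not pass, and XRCC2 (-1.21 ± 0.30) and ZNF587 (-0.81 ± 0.18) were lower. AS3MT and BORCS7-ASMT overlap and share reads, so they are not 2 independent results.

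Within the vehicle libraries, shares of the called genes also ordered with the totals. The 1231 genes called higher took 13.6%, 8.95% and 12.2% of counts in vehicle replicates 1 to 3, in the order of the totals. They took 25.0%, 25.5% and 25.3% in endothelin-1 replicates 1 to 3, a narrow range in the reverse order of the totals, 21.3% to 22.8% with sacubitrilat and 9.39% to 11.04% with both compounds. The 1365 called lower took 18.5%, 30.8% and 22.1% in vehicle replicates 1 to 3, in the reverse order of the totals. They took 8.74%, 8.38% and 8.60% in endothelin-1 replicates 1 to 3, highest in the deepest library, 9.56% to 10.3% with sacubitrilat and 24.5% to 30.7% with both. Between the deepest and the shallowest vehicle library, 69.9% of the genes called higher were higher in the deeper one, and 83.5% of the genes called lower were lower in it. Of the 8607 genes not called, 52.1% were higher and 47.5% lower in the deeper library. The called genes come from a fit that includes these same vehicle libraries, so their shares and orders are not independent of the calls. With the log2 total as a further term in the model, 1 gene passed as higher and 26 as lower. The median log2 fold change of protein-coding genes lay between 0.07 and 0.21 in every class of transcript length (classes set after the values were seen), from under 1000 to 8000 or more bases.

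**Figure D5:**
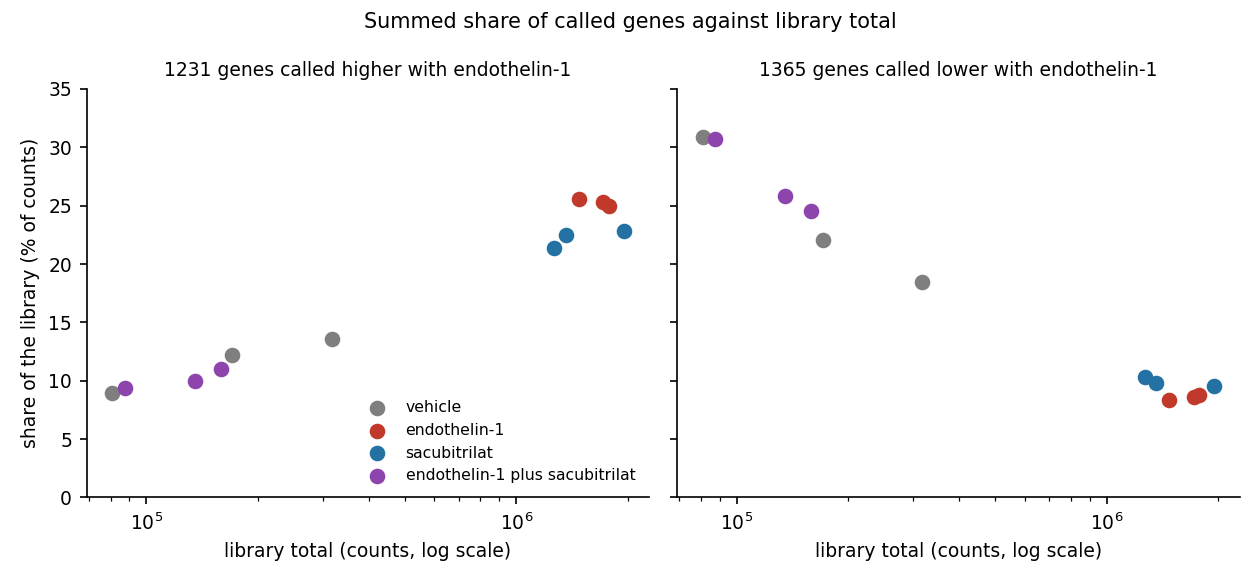
Percent of each library's counts (y axis) taken by the 1231 genes called higher (left) and the 1365 called lower (right), against the library total on a log axis, for all 12 libraries. Within the vehicle libraries the left share rises with the total and the right share falls from 30.8% to 18.5%, and the sacubitrilat libraries lie close to the endothelin-1 libraries.

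Endoderm and epithelial markers were lower with endothelin-1. Of 9 endoderm and liver markers tested, 8 fell and none rose (median -2.26), and of 14 epithelial and keratinocyte markers 10 fell and none rose (median -2.19). Few could be tested at matched depth: 1 endoderm marker, which did not pass (0.27), and 4 epithelial markers, of which 1 was lower (median -0.30). All 17 endoderm and liver markers together took 453 to 977 CPM with vehicle, 234 to 263 with endothelin-1, 199.8 to 274 with sacubitrilat and 724 to 836 with both compounds. EPCAM, an epithelial adhesion gene, had 16, 16 and 19 vehicle counts and 20, 22 and 13 under endothelin-1 (-2.99 ± 0.34, edgeR adjusted p = 2.19e-08). APOA2, a liver apolipoprotein gene, and LCN2, lipocalin-2, also fell, and LCN2 was at 119.9, 569 and 17.6 CPM with vehicle, with its peak in replicate 2. Albumin (ALB) had 1 count over the vehicle libraries, and the keratinocyte genes KRT5 and KRT14 had 0. Against sacubitrilat 1 of these tested markers, the epithelial gene KRT19, passed, as lower with endothelin-1. The summed epithelial list, led by KRT8 and KRT18, which cardiomyocyte cultures also express, was 5978 to 7261 CPM with vehicle and 6606 to 6886 with endothelin-1. The part of these transcripts in the falls was not tested.

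The make-up of the libraries differed as well. Long noncoding RNA took 7.60%, 10.1% and 8.04% of counts in vehicle replicates 1 to 3 and 5.19% to 5.29% in the endothelin-1 libraries. Pseudogenes took 2.39%, 3.17% and 2.55% with vehicle and 1.91% to 1.95% with endothelin-1, and ribosomal protein genes 6.51% to 7.71% and 5.92% to 6.13%. Mitochondrial rRNA was higher with endothelin-1 (6.03% to 6.06%) than with vehicle (4.63%, 1.49% and 3.46%). For each of these classes the groups did not overlap, and the exact two-sided permutation p was 0.1, the smallest that 3 against 3 can give. Other mitochondrially encoded genes took 17.5%, 9.87% and 15.2% with vehicle and 14.0% to 14.2% with endothelin-1, with overlapping groups. Thinned to 80000 counts, the vehicle libraries held 11600, 13843 and 12148 genes with a count and the endothelin-1 libraries 11068 to 11282 (exact permutation p = 0.1). The 50 most abundant genes took 24.8% to 34.2% with vehicle and 30.9% to 31.2% with endothelin-1 (exact permutation p = 0.9).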

How the data were processed

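3′-end RNA libraries of 12 cultures (4 groups of 3) were read from the deposited tables. The authors' estimated counts per gene (some not whole) were made with fastp 0.24.0 and featureCounts, and GRCh38 is the build, as the submitters' processing notes state. Aligner, annotation release, strand setting and use of molecular identifiers: not given in the sources used here. The deposited CPM values equal the deposited counts scaled to the library total. Of 78986 features, 92 spike-ins with 0 counts were left out, and 36134 genes have no symbol. Counts were rounded and fitted over all 12 libraries with edgeR 4.0.16 (R 4.3.3; filterByExpr, TMM, quasi-likelihood test, Benjamini-Hochberg adjustment, threshold 0.05), after the procedure was tested on simulated data. DESeq2 1.42.0 and limma 3.58.1 were alternatives, beside RLE scaling, other filters, the 2 groups alone, thinned libraries, the log2 total as a term, exchanged labels and each replicate left out. Depth matching thinned endothelin-1 counts at random, without replacement, and refitted the 2 groups. Floors (3 counts) and intervals cover counting error only.

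Same-numbered libraries were compared for pairing, and their residuals around group means correlated between -0.134 and 0.0453 over 18 pairs, none over 0.1, so numbers were taken as names. Named genes were a panel of 18, the 12 largest changes in each direction among genes called with and without depth matching (mean of at least 20 CPM, no overlap), and up to 4 called members per list by smallest p. TTN, TNNC1, TNNT2, ACTN2, KRT19 and single members named for a small count of falls were chosen after their values were seen. Members and lists were chosen with earlier results of these data known. Promoters come from RefSeq (GRCh38.p14), which gave a window for 31 of 38 panel and largest-change genes. Figures were drawn with matplotlib 3.10.9. Some named results are not reported here.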

Additional observations from a re-analysis of the deposited data

How the results depend on the processing

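Endothelin-1 against vehicle gave 2596 genes, and 992 (442 higher, 550 lower) among genes with a mean of at least 50 counts, 630 (243, 387) with endothelin-1 thinned to the vehicle totals, 447 (176, 271) with all libraries thinned to 80000 counts, and 27 (1, 26) with the log2 total as a term. The first 3 of these settings tested fewer genes. Leaving out single libraries gave 1812 to 2525. With a replicate block 2354 passed, and no named gene lost its call. Endothelin-1 against sacubitrilat gave 638 (mean of at least 50 counts), 758 (DESeq2), 472 (limma-voom), 2106 (the 2 groups alone), 10 (80000 counts) and 1898 (without the 2 libraries under 100000 counts), with 686 to 1672 over libraries left out. Both compounds against vehicle gave 62 (no filter), 51 (mean of at least 50 counts), 156 (DESeq2), 10 (limma-voom), 10 (replicate block), 0 (edgeR on the 2 groups alone, where 206 had an unadjusted p under 0.05), 42 (log2 total as a term) and 126 (without the 2 libraries under 100000 counts), with 6 to 221 over libraries left out, the highest without vehicle replicate 2. The cause of these differences was not tested.

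Over 116 named genes tested there were 2196 values under alternatives: 1974 kept direction and side of the threshold, 184 lost the threshold, 9 gained it and 29 changed sign. With the log2 total as a term the log2 fold change over vehicle was -0.07 for NPPA, -0.55 for GUCY1A1, -0.28 for CAMK2D, -0.54 for ANKRD1, -0.16 for MYH6, -0.61 for NEXN, -2.36 for ACTC1, -1.29 for ACTA1, -0.78 for MYL7, 0.81 for MYL4, -0.82 for PLN, 0.94 for ATP2A2, -0.14 for RYR2, 0.66 for MCM4, -0.05 for ENO3, 0.02 for NQO1, -1.66 for TTN, 0.11 for TNNC1, 0.10 for MYLK3 and 0.44 for MFAP2. With the endothelin-1 and sacubitrilat labels exchanged it was -0.36 for MYH7, 0.33 for IGFBP5, -0.18 for CCND1, -0.77 for ENO3, -0.60 for BANCR, -0.27 for LOX, -0.04 for VEGFA and 0.54 for TNC. ATP2A2 was at 0.04 without a filter. Without vehicle replicate 2 only KCNJ3 and LPL lost their calls among the named genes, and 14 did so when some single library was left out. In the shallowest vehicle library a count of 0 allows a level of up to 37.1 CPM.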

Other observations

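Further gene groups are given as counts over vehicle, beside 11% higher and 12.2% lower over all genes. Among TGF-beta ligands, receptors and targets, 12 of 29 tested genes rose and 4 fell (median 0.48; 5 rose and 2 fell of 17 tested at matched depth). In the list of growth factors and cytokines, 9 of 29 tested genes rose and 3 fell (median 0.55; 4 rose and 1 fell of 16 tested at matched depth). For EGF receptor ligands and receptors, 1 of 11 tested genes rose and 2 fell (median -0.59; 0 rose and 0 fell of 3 tested at matched depth), with the ligand genes AREG and EREG lower. Of the creatine kinase, myoglobin and ATP shuttle genes, 7 of 19 tested genes rose and 1 fell (median 0.51; 3 rose and 1 fell of 12 tested at matched depth). In the hypoxia list, 3 of 16 tested genes rose and 0 fell (median -0.01; 1 rose and 0 fell of 6 tested at matched depth), and 7 exceeded sacubitrilat. Among heat shock genes, 6 of 19 tested genes rose and 2 fell (median 0.49; 2 rose and 1 fell of 12 tested at matched depth), with HSPA1A and HSPA1B, near-identical copies that may share reads, lower. Among endoplasmic reticulum chaperones, 3 of 22 tested genes rose and 0 fell (median 0.44; 2 rose and 0 fell of 13 tested at matched depth). For ribosome biogenesis and translation control, 0 of 29 tested genes rose and 3 fell (median -0.09; 0 rose and 1 fell of 13 tested at matched depth). For proteasome, autophagy and lysosome, 6 of 28 tested genes rose and 2 fell (median 0.18; 1 rose and 2 fell of 19 tested at matched depth). Among microtubule genes, 2 of 20 tested genes rose and 2 fell (median 0.17; 1 rose and 1 fell of 12 tested at matched depth).

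Of smooth muscle and pericyte markers, 6 of 12 tested genes rose and 0 fell (median 0.99; 3 rose and 0 fell of 7 tested at matched depth), and the same number, 6, exceeded sacubitrilat. The summed list was 646 to 2333 CPM with vehicle, 4003 to 4051 with endothelin-1 and 3192 to 3277 with sacubitrilat. Of fibroblast markers, 4 of 11 tested genes rose and 2 fell (median 0.54; 1 rose and 0 fell of 7 tested at matched depth), and 3 were lower than with sacubitrilat. The summed list was 1948 to 5228 CPM with vehicle, 6831 to 7689 with endothelin-1 and 7242 to 7557 with sacubitrilat. Of epicardial markers, 0 of 9 tested genes rose and 3 fell (median -0.86; 0 rose and 1 fell of 1 tested at matched depth), and 6 were lower than with sacubitrilat. Of atrial and nodal markers, 3 of 10 tested genes rose and 2 fell (median 0.61; 2 rose and 1 fell of 5 tested at matched depth). Of neural markers, 1 of 6 tested genes rose and 2 fell (median -0.32; 0 rose and 1 fell of 1 tested at matched depth). Of blood markers, 0 of 3 tested genes rose and 2 fell (median -1.86; 0 rose and 0 fell of 0 tested at matched depth), with LYZ and CD74 lower. Of pluripotency markers, 0 of 3 tested genes rose and 0 fell (median 0.22; 0 rose and 0 fell of 1 tested at matched depth). The part of these cell types in the other results was not tested.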
